A study of Mus musculus with 27 samples.

Results

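The 10 genes described here were the 3 members of the p53 family, Trp53, Trp63 and Trp73, and 7 genes known as targets of p53: Mdm2, Ccng1, Phlda3, Zmat3, Bax, Perp and Sesn2. They were taken by name from a table of 24454 genes, and all 10 were found. Trp73 had been chosen because it fell with Wnt3a in ΔHD2/fl lines, and it reached 1 CPM, the limit for testing, only in 3 ΔHD2/fl libraries. Its levels are therefore given as a description with no test.

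RNA-sequencing was performed on 9 cell lines from thoracic mammary tumours of 12-week-old female FVB/N mice, in which the MMTV promoter drives the polyoma middle T oncogene (PyMT) in the mammary gland. The coactivators Bcl9 and Bcl9L (B9/B9L) bind Pygopus through the domain HD1 and β-catenin through HD2. All lines carried 1 B9/B9L allele without one of these domains. ΔHD1/fl and ΔHD2/fl lines also kept a floxed, functionally wild-type allele, which had been removed in ΔHD1/- and ΔHD2/- lines by an adenovirus expressing Cre and GFP, followed by sorting for GFP. No line without a domain deletion is among these libraries. Each line was kept in medium without cytokine (labelled 4 days), with Wnt3a (100 ng/ml, 3 days) or with TGFβ (2 ng/ml, 4 days). Wnt3a libraries thus differ from untreated libraries in labelled time as well, and an effect of time was not tested. There were 2 lines per genotype, per the labels from different mice, and 3 lines of ΔHD2/-, which gave 27 libraries. The labels speak of 2 mice per genotype and do not say how the 3 ΔHD2/- lines are related. The question behind the design was how loss of the contact of B9/B9L with Pygopus or β-catenin alters the transcriptional response to both cytokines.

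p53 is a transcription factor that accumulates after DNA damage or oncogene activation and then stops the cell cycle or starts apoptosis. Its relatives p63 and p73 bind similar DNA sites: p63 is best known for maintaining the basal layer of stratified epithelia and the basal cells of the mammary gland, and p73 for roles in ciliated cells and neurons. Mdm2 is both a target of p53 and the ubiquitin ligase that degrades it. Cyclin G1 (Ccng1), the Akt inhibitor Phlda3, the RNA-binding protein Zmat3, the pro-apoptotic Bax, the desmosomal protein Perp and the stress sensor sestrin 2 (Sesn2) carry parts of the response. Perp is also a known target of p63 in epithelia.

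A p53 response element consists of a pair of 10-base half-sites. RefSeq promoter windows of GRCm38.p6, from 250 bases before to 50 bases after a transcription start, were available for 7 of the 10 genes in 8 windows, since Trp73 has 2, and they were searched on both strands for the p53 half-site. A half-site was present in 4 of the 8 windows, against 8.36% of all 32851 windows, and none of the 8 held a pair of half-sites separated by at most 13 bases, which 0.0731% of all windows did. The windows of Phlda3 and Sesn2 and both windows of Trp73 held no match. The 4 windows with a match are shown because they belong to Trp53 itself and to 3 of its targets, with the half-site in capitals. They are given 5′ to 3′ on the strand of the gene, at chr10:117710709-117711008 (Mdm2, minus strand), chr11:40755237-40755536 (Ccng1, minus strand), chr7:45466849-45467148 (Bax, minus strand) and chr11:69580109-69580408 (Trp53, plus strand). A match of letters is not evidence of binding.
Mdm2: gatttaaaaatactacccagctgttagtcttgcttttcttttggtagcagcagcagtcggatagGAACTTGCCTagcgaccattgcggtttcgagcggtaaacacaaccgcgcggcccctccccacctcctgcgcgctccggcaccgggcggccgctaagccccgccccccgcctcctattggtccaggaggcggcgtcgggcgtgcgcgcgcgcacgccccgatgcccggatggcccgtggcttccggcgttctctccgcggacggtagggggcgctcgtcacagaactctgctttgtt
Ccng1: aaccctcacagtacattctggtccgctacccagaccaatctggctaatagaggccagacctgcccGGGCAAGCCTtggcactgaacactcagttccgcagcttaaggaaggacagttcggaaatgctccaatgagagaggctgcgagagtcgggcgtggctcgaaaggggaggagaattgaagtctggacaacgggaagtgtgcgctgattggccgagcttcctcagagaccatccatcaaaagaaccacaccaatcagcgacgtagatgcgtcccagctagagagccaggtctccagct
Bax: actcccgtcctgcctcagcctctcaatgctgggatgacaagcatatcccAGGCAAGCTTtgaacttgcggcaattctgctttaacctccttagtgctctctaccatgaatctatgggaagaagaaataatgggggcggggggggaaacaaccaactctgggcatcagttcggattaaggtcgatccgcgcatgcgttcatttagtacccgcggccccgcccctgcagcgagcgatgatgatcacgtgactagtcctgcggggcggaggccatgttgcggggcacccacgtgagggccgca
Trp53: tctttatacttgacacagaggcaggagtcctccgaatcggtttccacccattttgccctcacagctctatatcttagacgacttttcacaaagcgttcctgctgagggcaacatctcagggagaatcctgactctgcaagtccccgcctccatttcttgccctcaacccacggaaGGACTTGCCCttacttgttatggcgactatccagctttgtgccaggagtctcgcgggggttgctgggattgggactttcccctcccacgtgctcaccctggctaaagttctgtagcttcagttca

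Libraries held 21.86 to 33.69 M reads (1 M is 1000000) assigned to genes. Levels are given as counts per 1000000 of these reads (CPM), and the 3 reads that a count of 0 allows correspond to 0.089 to 0.137 CPM. Intervals of this kind cover counting error only. ΔHD2/- lines 2 and 3 were far closer to each other (correlation across genes 0.993 to 0.997) than the other 15 pairs of replicate libraries were (0.807 to 0.957), and that they are independent lines is not shown, so n = 3 may overstate the replication of ΔHD2/-. The summed level of the 8 epithelial markers was 0.426 to 7062 CPM over all libraries. ΔHD1/fl line 2 went against the epithelial label, with sums of 0.426 to 7.99 CPM. ΔHD1/- line 2 was mixed, with Cdh1 at most 0.288 CPM and no Epcam reads but Krt8 at 988 to 2884 CPM. In both lines 3 of the 6 fibroblast markers were present, Col1a1 at 442 to 3611 CPM, Col1a2 at 96.6 to 1887 CPM and Pdgfra at 21.9 to 629 CPM, whereas Dcn was at most 1.51 CPM and Lum and Thy1 at most 0.036 CPM. The summed level of the 6 fibroblast markers was 0.747 to 5550 CPM over all libraries, that of the 5 leukocyte markers was 3.06 to 186 CPM with the defining Ptprc at most 0.252 CPM, and that of the 4 endothelial markers was 0.175 to 6.51 CPM. The part of these cell states in the results below was not tested, and in such bulk libraries fewer cells expressing a gene and less RNA per cell cannot be told apart. Bcl9 was 32.4 to 104 CPM and Bcl9l 70.7 to 346 CPM. These gene totals do not separate transcripts of the mutant allele from those of the floxed allele, so they do not check its removal.

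Levels differed between cell lines and between treatments. Of the variance of log2(CPM + 1) over the 27 libraries, the line accounted for 30.4% in Perp to 89.3% in Bax, and the treatment for 2.33% in Bax to 46.2% in Perp. The other 8 genes lay between these values in both shares. The shares are a description and do not rank the line against the treatment, since there were 9 lines and 3 treatments and each line was measured once per treatment.

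**Figure D1:**
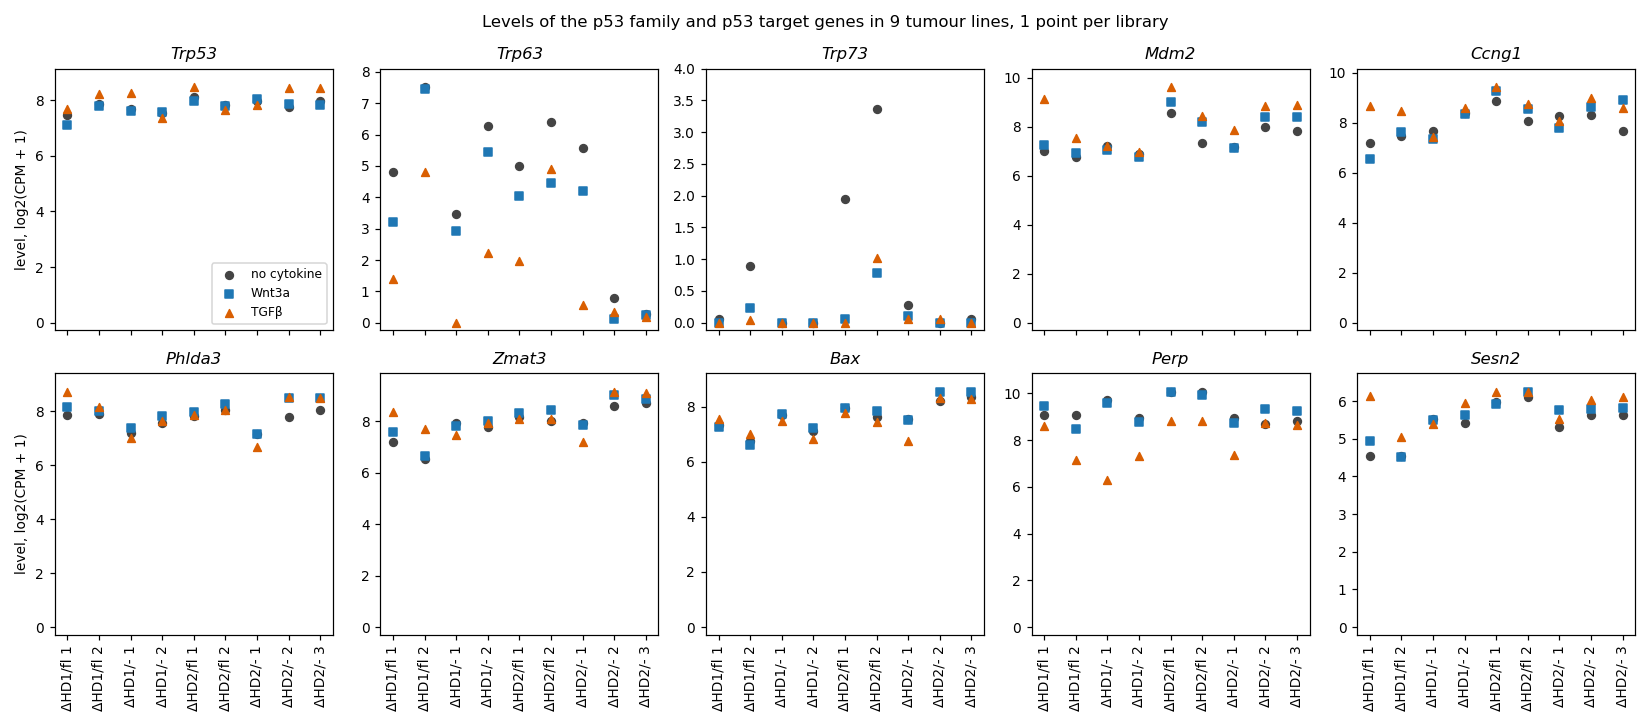
Level of each of the 10 genes, in log2(CPM + 1), in the 9 cell lines (horizontal axis), with 1 point per library and treatment shown by colour and shape. Trp63 and Trp73 differ between lines far more than Trp53 does, and the TGFβ points of Perp and Trp63 lie below the untreated points in most lines.

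Trp53 was present at similar levels in all lines. Without cytokine, Trp53 was 175 and 229.7 in ΔHD1/fl, 203 and 186 in ΔHD1/-, 278 and 227 in ΔHD2/fl, and 251, 213 and 253 in ΔHD2/- CPM. With Wnt3a, Trp53 was 137 and 218 in ΔHD1/fl, 196 and 189 in ΔHD1/-, 250.3 and 223 in ΔHD2/fl, and 264, 231 and 223 in ΔHD2/- CPM. With TGFβ, Trp53 was 205 and 297 in ΔHD1/fl, 306 and 161 in ΔHD1/-, 351 and 199 in ΔHD2/fl, and 228, 345 and 341 in ΔHD2/- CPM. The ranges of the 3 treatments overlapped, and the highest of the 27 values was 2.57 times the lowest. Compared with untreated cells of the same line, Trp53 was lower in 6 of 9 lines with Wnt3a and higher in 6 of 9 lines with TGFβ. The mean changes over the 4 genotypes were -0.08 ± 0.15 with Wnt3a and 0.22 ± 0.15 with TGFβ (log2 fold change ± SE), with adjusted p of 0.9998 and 0.339. Fold changes throughout are differences of log2(CPM + 1), which understates changes of low genes.

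Trp63 was the most variable of the 10 genes between lines and fell with TGFβ. Without cytokine, Trp63 was 27.2 and 180.4 in ΔHD1/fl, 9.96 and 75.8 in ΔHD1/-, 30.95 and 82.8 in ΔHD2/fl, and 46.8, 0.721 and 0.209 in ΔHD2/- CPM. The 7 lines other than ΔHD2/- lines 2 and 3 lay between 9.96 and 180.4 CPM, whereas those 2 lines held 16 and 5 reads. With Wnt3a the levels were 8.21 and 173 in ΔHD1/fl, 6.54 and 42.3 in ΔHD1/-, 15.4 and 20.9 in ΔHD2/fl, and 17.4, 0.0830 and 0.179 in ΔHD2/- CPM. With TGFβ they were 1.64 and 26.98 in ΔHD1/fl, 0 and 3.67 in ΔHD1/-, 2.95 and 28.7 in ΔHD2/fl, and 0.492, 0.259 and 0.125 in ΔHD2/- CPM, where the 0 stands for 0 reads in ΔHD1/- line 1 against 233 without cytokine. The CPM level was lower than without cytokine in 9 of 9 lines under both cytokines, although in ΔHD2/- lines 2 and 3 this rested on 2 to 7 reads after treatment. ΔHD2/- line 3 held 5 reads without cytokine and 5 with Wnt3a, so its lower CPM with Wnt3a reflects only the library sizes (23.89 and 27.95 M reads). Outside ΔHD2/- lines 2 and 3, 0.0105 to 0.347 of the untreated CPM level was left with TGFβ where reads remained.

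Averaged over genotypes, the TGFβ response of Trp63 was -2.73 ± 0.91 (adjusted p = 0.0472). Genes were called when the adjusted p was 0.05 or lower and the log2 fold change was 1 or more in either direction. This call was close to the threshold and was kept in 3 of the 16 alternatives that gave an adjusted p, which ranged from 0.000397 with cell line as a block to 0.160 without ΔHD2/fl line 1. It was also lost without any one of the other lines except ΔHD1/fl line 2, at adjusted p of 0.0501 to 0.112, whereas the log2 fold change stayed between -3.59 and -2.33 in all alternatives with an adjusted p. Within genotypes, Trp63 was called only with the block and in ΔHD1/- lines (-3.75, adjusted p = 0.0145, against 0.416 without the block). Trp63 also stands in the TGFβ gene list published with these libraries, which was chosen partly on them, so that list is no independent evidence of its direction. The Wnt3a response of Trp63 was -0.92 ± 0.91 (adjusted p = 0.9998).

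Trp73 was close to absent outside the ΔHD2/fl lines. Without cytokine, Trp73 was 0.0457 and 0.858 in ΔHD1/fl, 0 and 0 in ΔHD1/-, 2.85 and 9.26 in ΔHD2/fl, and 0.218, 0 and 0.0419 in ΔHD2/- CPM, that is 66 and 250 reads in ΔHD2/fl lines 1 and 2 against 0 to 23 reads elsewhere. With Wnt3a, Trp73 was 0 and 0.178 in ΔHD1/fl, 0 and 0 in ΔHD1/-, 0.0403 and 0.714 in ΔHD2/fl, and 0.0771, 0 and 0 in ΔHD2/- CPM. In ΔHD2/fl lines these levels stood for 1 read in line 1 and 18 reads in line 2. With TGFβ, Trp73 was 0 and 0.0355 in ΔHD1/fl, 0 and 0 in ΔHD1/-, 0 and 1.03 in ΔHD2/fl, and 0.0378, 0.0370 and 0 in ΔHD2/- CPM, and ΔHD2/fl line 1 held 0 and line 2 held 29 reads. The low level after Wnt3a in ΔHD2/fl lines is what chose this gene. TGFβ libraries of ΔHD2/fl were equally low but were set against the same untreated libraries, and the ΔHD1/fl line 2 went from 23 reads to 5 with Wnt3a and 1 with TGFβ. No Trp73 read was found in any library of ΔHD1/- lines.

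Gene totals do not separate the transcripts with and without the transactivation domain that Trp63 and Trp73 produce from different promoters. The annotation places the small RNA genes Gm24928 and Gm26036 within Trp63 and Trp73, and 4930429B21Rik overlaps Zmat3. The use of strand in counting is not given in the sources used here, so shared reads could not be assigned.

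Mdm2 was higher with TGFβ in 8 of 9 lines, but the increase did not reach the fold limit. Without cytokine, Mdm2 was 127 and 109 in ΔHD1/fl, 149 and 116 in ΔHD1/-, 376 and 162 in ΔHD2/fl, and 142, 255 and 224 in ΔHD2/- CPM. With Wnt3a, Mdm2 was 151 and 120.2 in ΔHD1/fl, 133 and 107 in ΔHD1/-, 507 and 289 in ΔHD2/fl, and 139.8, 333 and 331 in ΔHD2/- CPM. With TGFβ, Mdm2 was 562 and 185 in ΔHD1/fl, 145 and 124 in ΔHD1/-, 775 and 341 in ΔHD2/fl, and 230.1, 461 and 472 in ΔHD2/- CPM. The largest change was in ΔHD1/fl line 1, where the level with TGFβ was 4.42 times that without cytokine, whereas both ΔHD1/- lines stayed within 0.976 and 1.07 times. The other 6 lines lay between 1.62 and 2.11 times. The mean TGFβ response was 0.85 ± 0.27 (adjusted p = 0.0397). Between genotypes, the response in ΔHD1/- minus that in ΔHD1/fl was -1.42 ± 0.80 and was not called (adjusted p = 1, unadjusted 0.0944).

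The call of Mdm2 depended on the scaling, the tool and the block. With all libraries rescaled by median-of-ratios factors, the median TGFβ response of all tested genes moved from -0.16 to -0.02, and Mdm2 then rose by 1.02 and was called (adjusted p = 0.0148). It was also called with edgeR and DESeq2 on recovered reads and without ΔHD1/fl line 2, in 4 of 17 alternatives in all, with adjusted p from 0.000158 to 0.145. With cell line as a block it was called in ΔHD1/fl lines (1.45, adjusted p = 0.00556, against 0.410 without the block) and in ΔHD2/fl lines (1.06, adjusted p = 0.0240, against 0.637). In these 2 genotypes the block raised the share of all genes called from 0.211% to 5.42% and from 0.286% to 5.24%.

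Ccng1 and Sesn2 were likewise mostly higher with TGFβ. Ccng1 without cytokine was 147 and 178 in ΔHD1/fl, 201 and 333 in ΔHD1/-, 463 and 267 in ΔHD2/fl, and 308, 314 and 201 in ΔHD2/- CPM. With Wnt3a, Ccng1 was 93.8 and 199 in ΔHD1/fl, 161 and 325 in ΔHD1/-, 614 and 370 in ΔHD2/fl, and 218, 393 and 484 in ΔHD2/- CPM. With TGFβ, Ccng1 was 408 and 353 in ΔHD1/fl, 170.2 and 386 in ΔHD1/-, 682 and 426 in ΔHD2/fl, and 266, 511 and 381 in ΔHD2/- CPM. It was higher with TGFβ in 7 of 9 lines and with Wnt3a in 5 of 9, and the mean TGFβ response was 0.57 ± 0.24 (adjusted p = 0.117). Sesn2, which restrains mTORC1 under stress, was 22.5 and 22.3 in ΔHD1/fl, 44.8 and 41.5 in ΔHD1/-, 61.5 and 68.3 in ΔHD2/fl, and 38.9, 48.8 and 48.98 in ΔHD2/- CPM without cytokine. With Wnt3a, Sesn2 was 29.5 and 21.8 in ΔHD1/fl, 43.9 and 48.4 in ΔHD1/-, 60.1 and 74.6 in ΔHD2/fl, and 53.2, 54.8 and 55.5 in ΔHD2/- CPM. With TGFβ, Sesn2 was 69.4 and 32.1 in ΔHD1/fl, 40.7 and 61.1 in ΔHD1/-, 74.4 and 75.1 in ΔHD2/fl, and 45.5, 64.1 and 68.1 in ΔHD2/- CPM. The ΔHD1/fl lines were the 2 lowest for Sesn2 without cytokine. Sesn2 was higher with TGFβ in 8 of 9 lines by 0.45 ± 0.14 on average (adjusted p = 0.0310), below the fold limit. In ΔHD1/fl lines the TGFβ changes of Sesn2 (1.04, adjusted p = 0.0131) and Ccng1 (1.23, adjusted p = 0.0379) were called with the block, against 0.186 and 0.444 without it.

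Zmat3 and Phlda3 showed no common direction with TGFβ. Zmat3 without cytokine was 144 and 91.8 in ΔHD1/fl, 242 and 220.1 in ΔHD1/-, 284 and 254 in ΔHD2/fl, and 245, 381 and 413 in ΔHD2/- CPM. With Wnt3a, Zmat3 was 189.6 and 99.3 in ΔHD1/fl, 226 and 256 in ΔHD1/-, 322 and 343 in ΔHD2/fl, and 234, 516 and 462 in ΔHD2/- CPM. With TGFβ, Zmat3 was 326 and 206 in ΔHD1/fl, 178 and 246 in ΔHD1/-, 274 and 269.8 in ΔHD2/fl, and 146, 566 and 547 in ΔHD2/- CPM. Both ΔHD1/fl lines were higher with TGFβ and ΔHD2/- line 1 was lower, and the change in ΔHD1/fl lines was called with the block alone (1.17, adjusted p = 0.0135, against 0.498). Phlda3 without cytokine was 231 and 237 in ΔHD1/fl, 148 and 187 in ΔHD1/-, 225 and 265 in ΔHD2/fl, and 142, 221 and 268 in ΔHD2/- CPM. With Wnt3a, Phlda3 was 288 and 255 in ΔHD1/fl, 165 and 228 in ΔHD1/-, 249 and 309 in ΔHD2/fl, and 142, 364 and 356 in ΔHD2/- CPM. With TGFβ, Phlda3 was 424 and 283 in ΔHD1/fl, 128 and 198 in ΔHD1/-, 232 and 264 in ΔHD2/fl, and 103, 373 and 365 in ΔHD2/- CPM. Phlda3 was higher with Wnt3a in 9 of 9 lines, by 0.01 to 0.71 in single lines. The mean was 0.25 ± 0.25 (adjusted p = 0.9998), while the block gave an SE of 0.105 and an adjusted p of 0.264, and Phlda3 was called in neither fit.

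Bax changed least with treatment. Without cytokine, Bax was 162 and 108 in ΔHD1/fl, 208 and 136 in ΔHD1/-, 246 and 196 in ΔHD2/fl, and 186, 291 and 321 in ΔHD2/- CPM. With Wnt3a, Bax was 151 and 96.4 in ΔHD1/fl, 211 and 149 in ΔHD1/-, 246 and 229.8 in ΔHD2/fl, and 179.7, 369 and 371 in ΔHD2/- CPM. With TGFβ, Bax was 186 and 126 in ΔHD1/fl, 179 and 112 in ΔHD1/-, 216 and 172 in ΔHD2/fl, and 107, 317 and 307 in ΔHD2/- CPM. The ΔHD1/fl line 2 held the lowest untreated level and ΔHD2/- line 3 the highest, a factor of 2.97. The mean responses were 0.06 ± 0.23 with Wnt3a and -0.12 ± 0.23 with TGFβ (adjusted p = 0.9998 and 0.777).

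Perp was lower with TGFβ in 8 of 9 lines and fell on average. Without cytokine, Perp was 538 and 532 in ΔHD1/fl, 849 and 483 in ΔHD1/-, 1057 and 1059 in ΔHD2/fl, and 497, 405 and 445 in ΔHD2/- CPM. With Wnt3a, Perp was 694 and 351 in ΔHD1/fl, 771 and 431 in ΔHD1/-, 1069 and 972 in ΔHD2/fl, and 427, 636 and 605 in ΔHD2/- CPM. With TGFβ, Perp was 389.9 and 142 in ΔHD1/fl, 76.8 and 158 in ΔHD1/-, 449.6 and 449 in ΔHD2/fl, and 162, 421 and 394 in ΔHD2/- CPM. ΔHD2/- lines 2 and 3 stood apart, with 1.04 and 0.885 times the untreated level, whereas in the other 7 lines 0.0905 to 0.724 times that level remained. The mean TGFβ response was -1.38 ± 0.24 (adjusted p = 0.00102), and it was called in 17 of 17 alternatives with adjusted p from 4.8e-05 to 0.0130. Without ΔHD1/fl line 2 or ΔHD1/- line 2, the lines with hardly any Cdh1, it was -1.20 and -1.61. Among single genotypes the fall was called in ΔHD1/- lines (-2.53 ± 0.50, adjusted p = 0.0177, 1.43% of all genes called), in 9 of 17 alternatives. Without ΔHD1/- line 1 this response was -1.61 (adjusted p = 0.468), and without either ΔHD2/fl line, ΔHD2/- line 2 or ΔHD2/- line 3 its adjusted p was 0.0527 to 0.0608. In ΔHD1/- line 1, 4 of the 8 epithelial markers were lower with TGFβ as well, with Cdh1 going from 817 to 4.29 CPM, Epcam from 263 to 12.6 CPM, Cldn7 from 45.1 to 1.67 CPM and Ocln from 34.1 to 0.278 CPM. Krt8, Krt18 and Cldn4 were higher there and Krt19 had no reads. The part of this change in the fall of Perp was not tested.

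**Figure D2:**
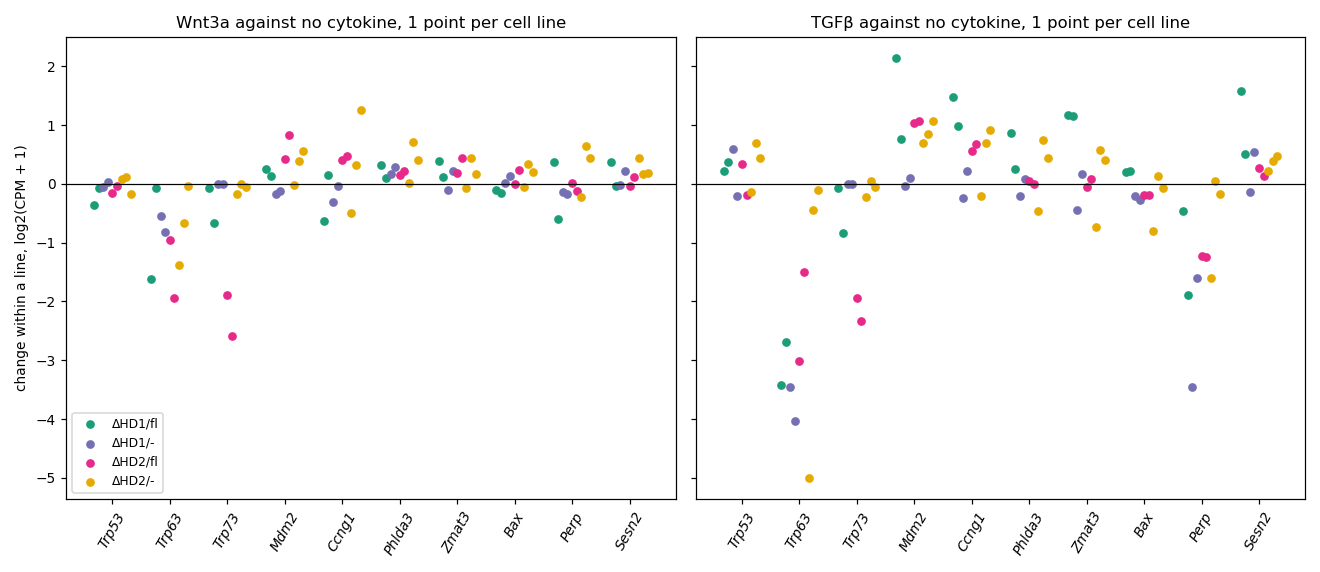
Change of each gene within a cell line, in log2(CPM + 1), with Wnt3a (left) and TGFβ (right) against no cytokine, with 1 point per line coloured by genotype. With Wnt3a most points lie near 0 apart from those of Trp63 and the ΔHD2/fl points of Trp73, on which it was chosen; with TGFβ all 9 points of Trp63 and 8 of 9 of Perp are below 0, and 8 of 9 of Mdm2 are above it.

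Over both cytokines, the members' calls were few. In the mean TGFβ response 2 of the 9 members other than Trp73 were called, Trp63 and Perp, both lower, against 5.42% of all 13270 genes tested (3.56% lower, 1.86% higher). This split depended on the scaling, since median-of-ratios factors gave 2.38% lower and 2.4% higher. The block called the same 2, against 8.92% of all genes. With median-of-ratios scaling, edgeR or DESeq2 the number was again 2, but the 2 genes were Perp, lower, and Mdm2, higher, against 4.78%, 6.44% and 8.18% of all genes. Without the fold limit Mdm2 and Sesn2 would be added at an adjusted p of at most 0.05, which 16.8% of all genes met. Within genotypes, 0, 1, 0 and 0 of these 9 members were called with TGFβ in ΔHD1/fl, ΔHD1/-, ΔHD2/fl and ΔHD2/- lines, where 0.211%, 1.43%, 0.286% and 0.806% of all genes were. At an unadjusted p under 0.05 these were 5, 1, 1 and 0 members, where 9.50%, 13.4%, 8.71% and 10.8% of all genes were. edgeR called 0 in each, against 0.0452%, 0.528%, 0.0226% and 0.497% of all genes, and DESeq2 called 1 (Sesn2), 1 (Perp), 0 and 0, against 1.21%, 3.14%, 0.701% and 2.82%. With the block the numbers were 4, 2, 1 and 0, against 5.42%, 9.33%, 5.24% and 6.03% of all genes. The share of all genes called in ΔHD2/- lines rested on lines 2 and 3, since it was 0.0453% with both averaged, 0.0831% without line 2 and 0.00755% without line 3.

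With Wnt3a no member was called. The mean response gave 0 of 9 tested with limma, edgeR, DESeq2 and the block, 0 members had an unadjusted p under 0.05, and 0.0226% of all genes were called (0.241% with the block). The same numbers of members, 0 called and 0 under 0.05, were found in each genotype, where 0.0151% of all genes were called in ΔHD1/fl, 0.00754% in ΔHD1/- and ΔHD2/-, and 0.113% in ΔHD2/fl lines. The members' mean responses lay between -0.92 (Trp63) and 0.25, with a median of 0.10 against -0.06 for all genes (0.01 with median-of-ratios scaling).

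Next, the lines without the floxed allele were compared with the fl lines of the same mutant. No member was called in any of these 6 comparisons with limma, edgeR or DESeq2. With lines of the same number paired within a family as a block, the count was also 0, at a lowest adjusted p of 0.151 (Phlda3 in ΔHD1 lines under TGFβ), where 0.279%, 0.309% and 0.633% of all genes were called for ΔHD1 and 1.18%, 1.36% and 0.867% for ΔHD2 without cytokine, under Wnt3a and under TGFβ. For ΔHD1/- against ΔHD1/fl, 0.0678% of all genes were called without cytokine, 0.0452% under Wnt3a and 0.0301% under TGFβ, and 1, 1 and 3 members had an unadjusted p under 0.05, as did 4.85%, 5.86% and 8.22% of all genes. These members were Sesn2 without cytokine (43.1 ± 2.3 against 22.4 ± 0.1 CPM, mean ± SD, n = 2 lines each; log2 difference 0.91, adjusted p = 0.599) and under Wnt3a (0.84, adjusted p = 0.667), and Mdm2, Phlda3 and Perp under TGFβ, all lower in ΔHD1/- lines by 1.09 to 1.26 on the log2 scale (adjusted p = 0.567 to 0.592). For ΔHD2/- against ΔHD2/fl the shares of all genes called were 0.55%, 0.686% and 0.354%, and 1, 0 and 0 members had an unadjusted p under 0.05, as did 8.61%, 8.64% and 7.98% of all genes. This member was Perp without cytokine, at 449 ± 46 CPM (n = 3) against 1058 ± 1 CPM (n = 2), a log2 difference of -1.24 ± 0.46 (adjusted p = 0.439). The differences in response between genotypes gave 0 members called in all 4 tests with limma, edgeR, DESeq2 and cell line as a block. In limma without the block, 0% and 0.0151% of all genes were called for Wnt3a (ΔHD1 and ΔHD2) and 0.00754% and 0.0301% for TGFβ. In that fit 0 members had an unadjusted p under 0.05, as did 0.113% and 0.558% of all genes for Wnt3a and 0.98% and 1.35% for TGFβ. With 2 or 3 lines a group, differences may have been missed, and the size of difference that these comparisons could detect was not tested.

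To place the members in their pathway, 45 p53 target genes (7 of them members) were followed. In the mean TGFβ response 8 of the 45 were called, 4 higher and 4 lower, and 37 were not, where 5.42% of all genes were called, 1.86% higher and 3.56% lower. The list's median change was 0.06 against -0.16 for all genes. Gadd45a, which halts cells after stress and is known to respond to several pathways, rose by 2.10 ± 0.28 (adjusted p = 0.000139), from 3.52 to 10.2 CPM without cytokine to 14.2 to 60.6 CPM, in 9 of 9 lines and without overlap. Cdkn1a, the cyclin-dependent kinase inhibitor p21 and a known target of TGFβ signalling as well as of p53, rose by 1.04 ± 0.33 with an adjusted p of 0.0390, in 9 of 9 lines. Its call was kept in 8 of 17 alternatives and was lost without either ΔHD1/- line, either ΔHD2/fl line, ΔHD1/fl line 1, or ΔHD2/- line 2 or 3 (adjusted p = 0.0653 to 0.137). The kinase gene Plk2 rose by 1.11 ± 0.24 (adjusted p = 0.00426) and the adenylate kinase gene Ak1 by 1.05 ± 0.25 (adjusted p = 0.00899), in 8 and 9 of 9 lines. Without ΔHD1/fl line 1 or ΔHD1/- line 2 both were below the fold limit and not called (Plk2 0.97 and 0.85, Ak1 0.86 and 0.95), and Ak1 was not called without ΔHD2/fl line 2 (adjusted p = 0.0641).

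The p53 targets that fell with TGFβ were Pltp, which transfers phospholipids between lipoproteins (-1.64 ± 0.37, adjusted p = 0.00579), Sesn1, a sestrin (-1.42 ± 0.44, adjusted p = 0.0364), Perp, and the DNA damage sensor Ddb2 (-1.12 ± 0.22, adjusted p = 0.00217). Pltp, Sesn1 and Ddb2 were lower in 9 of 9 lines, and the call of Sesn1 was kept in 7 of 17 alternatives. It was lost without any single line other than ΔHD1/fl line 1 and ΔHD2/- line 1 (adjusted p = 0.0620 to 0.132), and that of Ddb2 without ΔHD1/- line 1, through the fold limit (-0.96). With median-of-ratios scaling 7 of the 45 were called, 5 higher and 2 lower, against 4.78% of all genes (2.4% higher, 2.38% lower). With the block 11 were called, 6 higher and 5 lower, against 8.92%. Leaving out single lines gave 4 to 9 called. Targets of p53 thus moved in both directions. With Wnt3a 0 of 45 were called in the mean response or in any genotype, where at most 0.113% of all genes were. Cdkn1a was higher with Wnt3a in 9 of 9 lines (0.75 ± 0.33), but its adjusted p was 0.9998.

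**Figure D3:**
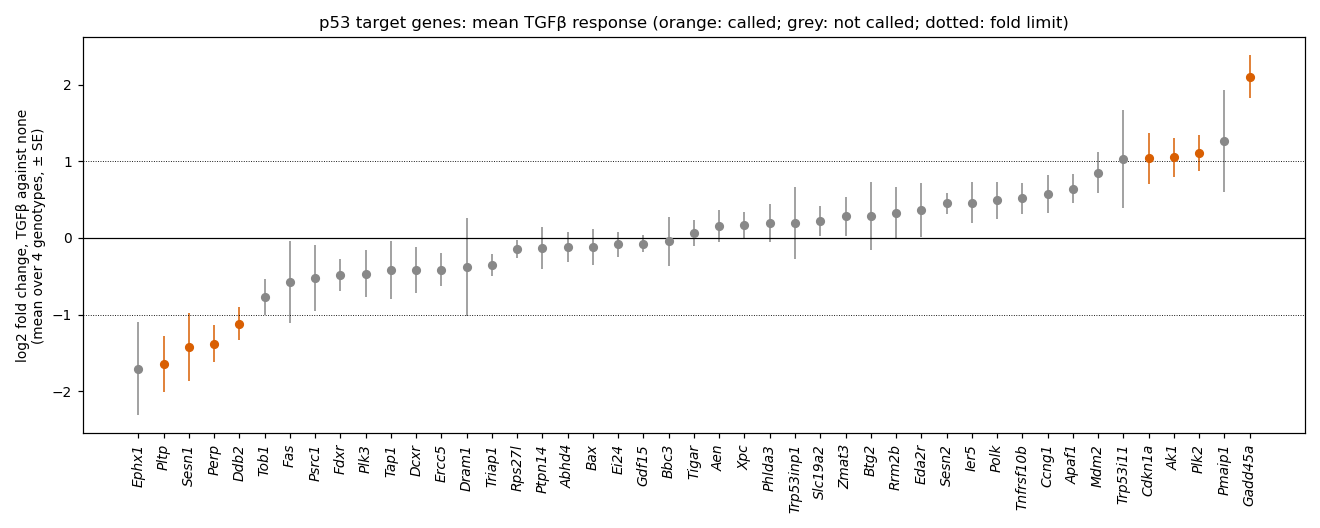
Mean TGFβ response of the 45 p53 target genes, ordered by size, as log2 fold change ± SE over the 4 genotypes; orange points passed the adjusted p and the fold limit (dotted lines) and grey points did not. Of the 8 called genes 4 lie above and 4 below 0.

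In single comparisons further targets were called. Gadd45a rose with TGFβ in ΔHD2/- lines (2.73 ± 0.48, adjusted p = 0.0109), a call lost without line 2 or line 3 of that genotype (0.257 and 0.343). The TNF receptor family gene Eda2r was lower in ΔHD2/- than in ΔHD2/fl lines without cytokine (-4.19 ± 0.68, adjusted p = 0.00381), under Wnt3a (-4.46 ± 0.68, 0.00240) and under TGFβ (-4.12 ± 0.68, 0.00998), at 1.67 to 4.15 CPM in the 9 ΔHD2/- libraries against 36.8 to 112 CPM in the 6 ΔHD2/fl libraries. The calls without cytokine and under TGFβ were lost without ΔHD2/fl line 1, ΔHD2/- line 2 or ΔHD2/- line 3 (adjusted p = 0.0660 to 0.162), and that under Wnt3a was kept without any single line. Eda2r was thus 1 of 45 targets lower under each treatment, where 0.528%, 0.641% and 0.294% of all genes were. With lines of the same number paired within the family as a block, Pmaip1, which encodes the pro-apoptotic Noxa, was also called lower under Wnt3a (-5.00, adjusted p = 0.0341) and TGFβ (-5.11, 0.0433). That pairing called 1.36% and 0.867% of all genes, and Pmaip1 was not called without it. Same-numbered ΔHD2 lines correlated at only 0.0871 to 0.190. The stress hormone gene Gdf15 was also past the thresholds without cytokine, but it reached 1 CPM only in 3 ΔHD2/fl libraries, the group where it was high, so its difference is given by its levels alone, 0.462 to 1.29 CPM in ΔHD2/fl and 0 to 0.457 CPM in ΔHD2/- libraries.

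Of 20 regulators of p53, 0 were called in either mean response, where 5.42% of all genes were called with TGFβ and 0.0226% with Wnt3a. Their median TGFβ change was -0.17 against -0.16 for all genes. With median-of-ratios scaling, edgeR or DESeq2, and without ΔHD1/fl line 2, 1 was called with TGFβ, Mdm2. Of all genes, the rescaling, edgeR and DESeq2 called 4.78%, 6.44% and 8.18%. Cdkn2a, which encodes p16Ink4a and the p53 activator p19Arf, divided the lines. It had 0 reads in all 9 libraries of ΔHD1/fl line 2, ΔHD1/- line 1 and ΔHD1/- line 2, which allows up to 0.128 CPM, and was 6.02 to 127 CPM in the 18 libraries of the other 6 lines. Both ΔHD1/- lines, in which Mdm2 changed little with TGFβ, were among those without Cdkn2a reads, as was ΔHD1/fl line 2, in which Mdm2 was 1.70 times the untreated level. A relation between both genes was not tested. With Wnt3a Cdkn2a was higher in all 6 lines that held reads, and with TGFβ in 5 of these 6. Gene totals do not separate its transcripts.

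Of 12 genes linked to p63 in basal epithelium, 11 had a mean TGFβ response below 0. The list's median was -1.22, and the median of all genes was also below 0, at -0.16. In the mean response 4 of the 12 were called, all lower, against 3.56% of all genes (2.38% with median-of-ratios scaling, which also called 4). These were Trim29 (-3.69 ± 0.76, adjusted p = 0.00338), the α6 integrin gene Itga6 (-2.12 ± 0.45, 0.00429), the protocadherin gene Fat2 (-1.83 ± 0.31, 0.000787) and Perp. Itga6 and Trim29 were lower in 9 of 9 lines. Both were also lower in ΔHD2/- lines 2 and 3, where Trp63 was close to the floor without cytokine, from 156 and 160 CPM to 1.11 and 1.79 CPM for Trim29. With the block 7 were called, all lower, against 8.92% of all genes, adding the basal keratins Krt5 and Krt14 and the β4 integrin gene Itgb4. In single lines Itgb4 was higher in 5 of 9, the ΔHD2 lines (0.01 to 0.32), and lower in the 4 ΔHD1 lines (-0.87 to -5.35). Markers of cell types were set beside this: with TGFβ, of the 8 epithelial markers 0 were called (median -0.49), of 5 fibroblast markers tested 0, and of 2 leukocyte markers tested 0. With the block, 3 epithelial markers were called, Cdh1 (-1.53, adjusted p = 0.0481) and Ocln (-1.80, 0.00409) lower and Cldn4 (1.81, 0.000478) higher, as were the fibroblast marker Col1a1 (1.21, 0.0146) and the leukocyte marker Csf1r (1.49, 0.00315), both higher. The other leukocyte marker tested, Cd68, was lower in 7 and higher in 2 of 9 lines. Within genotypes the block called Cd68 lower in ΔHD1/fl (-1.19, adjusted p = 0.0426) and ΔHD1/- lines (-2.00, 0.00186). The endothelial marker Cdh5 reached 1 CPM in TGFβ libraries alone, at up to 0.407 CPM without cytokine and 0.340 to 6.32 CPM with TGFβ, and is given with no test. The other endothelial markers were mixed with TGFβ. Pecam1 was lower in 9 of 9 lines (median -0.28), Tek was higher in 5 and lower in 4, and Kdr was higher in 7 at no more than 0.252 CPM. The part of all these markers in the fall of Trp63 and Perp was not tested.

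**Figure D4:**
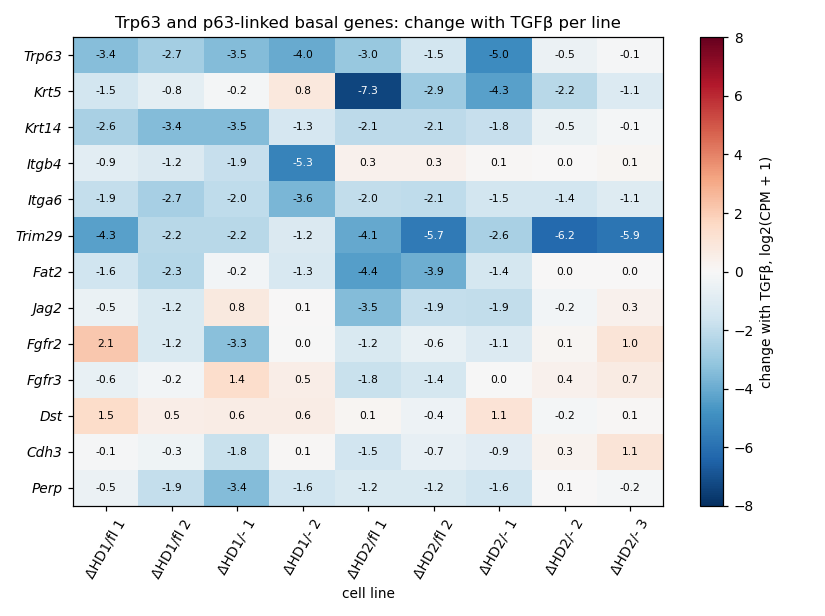
Change with TGFβ within each cell line (columns), in log2(CPM + 1), of Trp63 and 12 p63-linked basal genes (rows), with the value printed in each cell and blue for lower. Trp63, Krt14, Itga6 and Trim29 are lower in all 9 lines, and Perp changes little in ΔHD2/- lines 2 and 3, where Trp63 held only 16 and 5 reads without cytokine.

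With Wnt3a 0 of the 12 p63-linked genes were called in the mean response, with or without the block, against 0.241% and 0.0226% of all genes. In ΔHD2/fl lines alone, Fat2 was called lower with Wnt3a under the block (-3.06, adjusted p = 0.0361). Without the block Fat2 was not called there, where 0.113% of all genes were. Fat2 fell with TGFβ in ΔHD2/fl lines (-4.17 ± 0.64, adjusted p = 0.00526), a call lost without either of these lines (0.149 and 0.188). Without cytokine Fat2 (-4.68 ± 0.59, adjusted p = 0.000383) and the P-cadherin gene Cdh3 (-4.42 ± 0.72, 0.00381) were lower in ΔHD2/- than in ΔHD2/fl lines, and under Wnt3a Cdh3 was (-3.49 ± 0.72, 0.0265). Both calls of Cdh3 were lost without ΔHD2/- line 2 or 3 (0.0579 to 0.258), and that under Wnt3a also without ΔHD2/fl line 2 (0.126).

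Finally, the genes whose pattern over the 27 libraries was most like that of the family members and Mdm2 were looked up by Pearson correlation of log2(CPM + 1). For Trp53, Apex2 (0.835) and Txnrd1 (0.818) were among them. For Trp63 they were Ptx3 (0.932), Plcb1 (0.906) and D430020J02Rik (0.878). For Trp73 they were Cnmd (0.937), Il17b (0.924) and Phyhip (0.912), a pattern set mainly by the 2 untreated ΔHD2/fl libraries. For Mdm2 they were Slc29a3 (0.896), Mir7070 (0.858), which lies within Fbxw9, and Apaf1 (0.857), itself on the list of p53 targets. The libraries share cell lines, so these values are descriptions.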

How the data were processed

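Stranded mRNA libraries were prepared and sequenced as single reads (NovaSeq per the labels; the study's methods also name a NextSeq). The authors used STAR for alignment to mm10 (unique hits only) and QuasR to count reads whose start lay in a RefSeq exon. The deposited values are CPM, without further scaling by the authors: each library summed to 1000000, and 100% of values were whole multiples of 1 read (within 0.02), so reads could be recovered. Of 24454 gene identifiers, 80 matched no RefSeq symbol.

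Testing covered 13270 genes that reached 1 CPM in 2 or more libraries. limma 3.58.1 (R 4.3.3, trended and robust) was run on log2(CPM + 1), with 12 group means over 27 libraries and Benjamini-Hochberg adjustment over all genes. Thresholds followed the methods of the study, an adjusted p up to 0.05 and a log2 fold change of 1 or more in either direction. No test of Trp73 is reported, because it was chosen on, and passed the filter only through, ΔHD2/fl libraries. Tests were tried on simulated data. In the main fit p-values measure the spread between lines. With cell line as a block they measure the spread left after the level of each line is removed.

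Libraries of 1 cell line deviated together from their group means (correlation 0.509 to 0.940 in 27 pairs), and per the labels they were plated together, so cell line as a replicate block was an alternative for treatment comparisons. Same-numbered fl and recombined lines correlated at 0.117 to 0.472 (ΔHD1) and 0.0871 to 0.190 (ΔHD2), and their common origin is not given by the labels. Further alternatives were DESeq2 1.42.0 and edgeR 4.0.16 on recovered reads, each line left out, the compared groups by themselves, median-of-ratios factors, the unfiltered table, 0.1 as the pseudocount, and ΔHD2/- lines 2 and 3 averaged.

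Members, gene lists and tests were chosen with earlier results of these data known. All members were named, with statistics where called with or without the block, and called list genes up to 4 each way; members outside this rule whose values are given were chosen after these were seen. A gene of the p63-linked list and a gene with a pattern like that of Trp53 are not reported here.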

Additional observations from a re-analysis of the deposited data

Results flagged for a closer look

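In the ΔHD1 family, 3 responses went one way in both fl lines and the opposite way in both lines without the floxed allele. Mdm2 with Wnt3a changed by 0.19 on average in ΔHD1/fl and by -0.14 in ΔHD1/- lines (difference -0.33 ± 0.80). Bax with Wnt3a changed by -0.13 and 0.077 (difference 0.21 ± 0.68), and Bax with TGFβ by 0.21 and -0.25 (difference -0.45 ± 0.68). In limma's test of the difference none of the 3 was called (adjusted p = 1 for each, unadjusted p = 0.681, 0.764 and 0.515), and all 3 changes were smaller than their standard errors. Groups of 2 lines were too small for the check of single outlying libraries.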

How the results depend on the processing

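The results were recomputed under 17 alternatives, and no fold change of the genes recomputed changed direction. The median Wnt3a response of all genes went from -0.06 to 0.01 with median-of-ratios scaling, 0.0016 with edgeR and 0.01 with DESeq2. Of 406 recomputed counts of called genes, 375 stayed within 1.5 times. In the mean TGFβ response, 1 member in place of 2 was called with a pseudocount of 0.1, with no filter and with ΔHD2/- lines 2 and 3 averaged, and 1 to 3 were called when single lines were left out. In ΔHD1/fl lines, 4 members in place of 0 were called with the replicate block, 1 with DESeq2 and 0 to 1 without single lines. In ΔHD1/- lines, 2 members in place of 1 were called with the replicate block, 0 with the compared groups alone, edgeR or averaged lines, and 0 to 1 without single lines. In ΔHD2/fl lines 1 was called with the replicate block in place of 0. Of the p53 targets, 8 in the mean TGFβ response became 4 to 9 without single lines, with 5 without ΔHD1/fl line 1, ΔHD1/- line 1 or ΔHD2/fl line 2 and 4 without ΔHD1/- line 2. Of the p53 regulators, 1 in place of 0 was called with median-of-ratios scaling, edgeR or DESeq2, and 0 to 1 without single lines. Of the p63-linked genes, 7 in place of 4 were called with the replicate block. Within ΔHD1/fl, ΔHD1/-, ΔHD2/fl and ΔHD2/- lines, the block called 10, 7, 4 and 6 p53 targets with TGFβ in place of 0, 1, 0 and 1, and 3, 4, 7 and 2 p63-linked genes in place of 0, 1, 1 and 0. The block also raised the share of all genes called in these lines, to 5.42%, 9.33%, 5.24% and 6.03% from 0.211%, 1.43%, 0.286% and 0.806%. The other counts of members called were the same with the block. For single genes, 419 of 523 values kept their side of the threshold, 92 lost and 12 gained a call. The cause was not tested. Over all genes, the mean TGFβ response gave 719 calls, 1184 with the block, 1086 with DESeq2 and 455 to 933 without single lines. Depth limited Trp73 in all libraries but the 2 untreated ΔHD2/fl ones (0 to 29 reads), and Trp63 in ΔHD2/- lines 2 and 3 (2 to 16 reads) and in ΔHD1/- line 1 with TGFβ (0 reads).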
